A study of Mus musculus with 6 samples.

Results

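The activity factors described here are 10 genes that encode transcription factors of the Fos, Jun, Egr and Npas4 families: Fos, Fosb, Fosl2, Jun, Junb, Egr1, Egr2, Egr3, Egr4 and Npas4. They were taken by gene symbol from the 38087 genes of the table, and each symbol matched 1 row. Brain RNA was sequenced from 3 wild-type (WT) mice and 3 mice haploinsufficient for Shugoshin 1 (Sgo1-/+), all labelled as strain C57BL6, 24 months old and with no treatment named. Sgo1 encodes a protein that protects the cohesion of sister chromatids, and Sgo1-/+ mice keep 1 intact copy of the gene. Each library came from 1 mouse, and the tissue was the cerebrum with cortex and hippocampus, from which olfactory bulb, cerebellum and medulla had been removed. The males were WT replicate 1 and Sgo1-/+ replicate 2, and 4 mice were female. All WT libraries were in sequencing run 258 and all Sgo1-/+ libraries in run 259, so genotype and run cannot be told apart.

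These genes are immediate early genes, which neurons transcribe within minutes of a burst of synaptic input, without the need for new protein synthesis. Calcium entry and kinase signalling act on factors that are already bound at their promoters, among them CREB at the cyclic AMP response element (CRE) and serum response factor at the CArG box. The Fos and Jun proteins pair to form AP-1, the Egr proteins are zinc finger factors, and Npas4 is a basic helix-loop-helix factor found mainly in neurons. Their RNA is short-lived, so its level at dissection depends on the recent activity of the tissue, which differs between brain regions.

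The promoters are shown because the members are known for shared elements there. The RefSeq table on GRCm38.p6 held windows from 250 bases before to 50 bases after the start site for 8 of the 10 members, all but Egr1 and Egr3, in 12 windows of which 5 belonged to Egr2 and partly overlapped. The letter patterns searched were counted on both strands, namely the CArG box, the full CRE TGACGTCA, the CRE core TGACG, the AP-1 element TGANTCA and the Egr element GCGTGGGCG. A full CRE holds a CRE core on each strand, so those 2 patterns overlap. For the 6 members that hold a CRE core, the 200 bases before the start site follow, 5′ to 3′ on the gene's strand, with CRE cores (TGACG or its complement CGTCA) and the CArG box of Egr2 in capitals.
Fos, chr12:85473690-85473889, + strand: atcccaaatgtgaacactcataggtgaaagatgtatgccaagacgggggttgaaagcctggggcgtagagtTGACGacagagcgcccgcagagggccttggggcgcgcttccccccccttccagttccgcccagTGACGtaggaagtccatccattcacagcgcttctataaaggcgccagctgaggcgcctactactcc
Fosb, chr7:19310046-19310245, - strand: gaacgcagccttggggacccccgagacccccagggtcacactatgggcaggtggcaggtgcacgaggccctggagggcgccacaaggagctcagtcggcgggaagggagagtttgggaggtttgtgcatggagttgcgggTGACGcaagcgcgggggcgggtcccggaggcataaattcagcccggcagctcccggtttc
Junb, chr8:84978749-84978948, - strand: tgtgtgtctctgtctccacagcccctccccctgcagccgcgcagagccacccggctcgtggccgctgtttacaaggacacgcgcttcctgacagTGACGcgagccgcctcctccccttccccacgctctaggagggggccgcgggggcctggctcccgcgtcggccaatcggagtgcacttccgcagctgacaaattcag
Egr2, chr10:67537669-67537868, + strand: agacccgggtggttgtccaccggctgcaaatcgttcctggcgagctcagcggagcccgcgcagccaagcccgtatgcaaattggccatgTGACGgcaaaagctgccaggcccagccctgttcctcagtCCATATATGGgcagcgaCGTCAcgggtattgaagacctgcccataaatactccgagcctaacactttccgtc
Egr4, chr6:85513590-85513789, - strand: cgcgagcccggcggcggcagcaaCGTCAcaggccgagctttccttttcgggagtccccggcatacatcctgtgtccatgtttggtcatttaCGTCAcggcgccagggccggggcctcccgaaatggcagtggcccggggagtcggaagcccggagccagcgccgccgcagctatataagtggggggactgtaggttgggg
Npas4, chr19:4989972-4990171, - strand: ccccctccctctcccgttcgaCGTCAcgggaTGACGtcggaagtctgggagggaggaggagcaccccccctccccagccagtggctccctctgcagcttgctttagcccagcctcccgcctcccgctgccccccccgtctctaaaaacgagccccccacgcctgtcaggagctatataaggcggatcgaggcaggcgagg

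The CRE core was present in 6 of these 8 members and in 8 of their 12 windows, against 20.8% of 32851 windows of the same length over all genes. Counted from the start site, with negative positions before it, its leftmost base lay at -129 and -66 in Fos and at -179 and -169, on opposite strands, in Npas4. Egr4 held it at -177 and -109, Junb at -106 and Fosb at -60. A CArG box was present in Egr2 alone among the 8, in 4 of its 5 windows, against 1.63% of all windows. In the Egr2 window shown it lay at -72, between CRE cores at -111 and -55. Some of the Egr2 windows overlap and hold the same sites, so these window counts include repeats. The shares over all genes are per window, and Egr2, with 5 windows, had more chances of a match. None of the 12 windows held the full CRE, the AP-1 element or the Egr element, which were present in 1.79%, 7.81% and 0.612% of all windows. Elements outside the windows, or spelled otherwise than these patterns, were not searched for. A member without a match here can therefore still hold such an element. Jun and Fosl2 held none of the patterns, and the Jun promoter is given for comparison.
Jun, chr4:95052223-95052422, - strand: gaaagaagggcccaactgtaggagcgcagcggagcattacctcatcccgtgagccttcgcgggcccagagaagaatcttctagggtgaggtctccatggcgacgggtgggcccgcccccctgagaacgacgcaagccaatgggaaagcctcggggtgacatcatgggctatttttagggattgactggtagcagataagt

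Total estimated counts, which are read counts that share ambiguous reads between genes, were between 11123917 and 12505561 per library. Sgo1 itself had estimated counts of 0, 7 and 0 in the WT and of 4, 2 and 0 in the Sgo1-/+ libraries, in replicate order as in every such list here, and since a count of 0 in a library can stand for up to 3 counts, the genotype could not be checked from it. The sex genes Xist and Ddx3y matched the labelled sex in all 6 libraries. Markers of cortex and neurons were present in every library, as the tissue label says. WT replicate 1 stood apart: its mean correlation of log2 values with the other libraries was 0.935, against 0.967 to 0.970 for the others. The summed level of 8 markers of cerebellar granule cells was 1567 CPM (counts scaled to a common library size) in WT replicate 1 and 84.3 to 170 CPM in the others, and that of 8 markers of medulla and brain stem was 209 CPM against 43.7 to 59.1 CPM, although cerebellum and medulla are labelled as removed. Of those 8 brain stem markers, 0 were at a count of 0 in WT replicate 1 and 2 to 5 in each of the others. Its cortex markers summed to 398 CPM against 1191 to 1496 CPM, and its striatum markers to 308 CPM against 955 to 2304 CPM. The third region labelled as removed, the olfactory bulb, differed too, with 8 markers that summed to 109, 509 and 410 CPM in WT and 333, 252 and 121 CPM in Sgo1-/+ libraries and none at a count of 0. Its marker Eomes had 83.6, 238 and 150 normalized counts in WT and 90.4, 8.11 and 4.09 in Sgo1-/+ libraries, so its groups overlapped. Oligodendrocyte markers summed to between 4563 and 11975 CPM, highest in WT replicate 1 and next in Sgo1-/+ replicate 3, at 11317 CPM. The part of these differences in the results was not tested. The comparisons of the members and of the further gene lists are given with and without WT replicate 1. In bulk RNA, fewer cells of a type and less RNA per cell cannot be told apart.

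Levels of different genes were compared per length, as CPM per kilobase of exon. By the median of the 6 libraries, Egr1 was the highest of the activity factors at 33.3 CPM per kb (range 13.1 to 73.6). It was followed by Junb at 21.5 (5.22 to 34.1), Jun at 13.2 (10.3 to 16.5) and Fos at 11.3 CPM per kb (2.29 to 19.2). Egr4 at 8.89 (1.59 to 19.8) and Egr3 at 7.97 CPM per kb (0.720 to 10.9) were next. The lowest were Npas4 at 3.13 (0.645 to 4.14), Fosl2 at 2.52 (1.33 to 4.80), Fosb at 1.93 (0.374 to 3.67) and Egr2 at 1.11 CPM per kb (0.247 to 4.20). Neighbours in this order had ranges that overlapped, and the median of the 5 libraries without WT replicate 1 gave the same order. The range of Egr1 lay wholly above those of Egr3, Npas4, Fosl2, Fosb and Egr2.

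**Figure D1:**
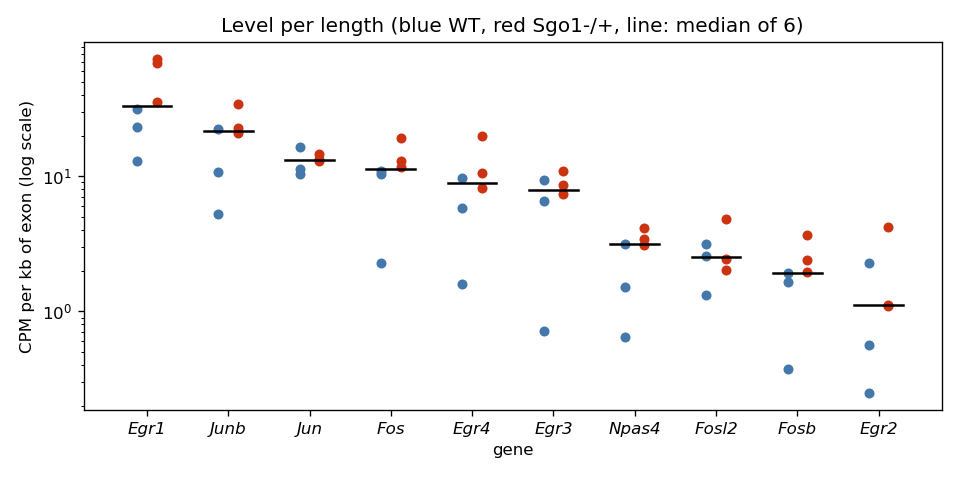
Level of each activity factor in CPM per kilobase of exon, on a log axis, with 1 point per library (WT in blue, Sgo1-/+ in red) and the median of the 6 libraries as a line. Egr1 had the highest median, 33.3, and Egr2 the lowest, 1.11, and the points of Jun lay closest together.

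All 10 activity factors had a higher fitted level in Sgo1-/+ than in WT brains, with a median log2 fold change of 1.02 against -0.00 over the 16337 genes tested, of which 49.8% were above 0. No member passed the test after correction, and neither did any other gene: 0 genes, 0% of those tested, had an adjusted p under 0.05 (quasi-likelihood test of edgeR, corrected after Benjamini and Hochberg). Egr1 alone had an unadjusted p under 0.05 with a higher level in Sgo1-/+, where 0.808% of all genes did. DESeq2's Wald test placed 4 members under that unadjusted limit, Junb, Egr1, Egr4 and Npas4, all higher, against 0.809% of the genes it tested. It placed 3 genes of the table, 0.0184%, under an adjusted p of 0.05, with 0 members among them. The fitted fold was at least 2 in 6 members, Fosb, Junb, Egr1, Egr2, Egr4 and Npas4, against 0.612% of all genes. All 3 Sgo1-/+ libraries were above all 3 WT libraries for 3 members, Fos, Fosb and Egr1, against 3.24% of all genes. For each member alone, the exact two-sided permutation test over the 20 groupings of the libraries cannot give a p below 0.1.

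The size of this difference depended on single libraries. Without WT replicate 1, the median log2 fold change of the members was 0.63, against 0.0055 over all genes. In that fit 9 of the 10 stayed above 0, against 51.3% of all genes. The members with a fitted fold of at least 2 were then Fos and Egr1, 2 of 10 against 1.2% of all genes, and 1 member, Egr1, had an unadjusted p under 0.05 with a higher level, against 1.86%. Groups that do not overlap cannot come to overlap when a library is left out, apart from rescaling, so the 3 members without overlap once WT replicate 1 was left out, against 8.72% of all genes, are no sign of stability. Without Sgo1-/+ replicate 2 the median was 0.67, and 1 member, Egr1, against 0.971% of all genes, had a fitted fold of at least 2. With the 4 female libraries alone the median was 0.28, 7 of 10 members were above 0 against 50.9% of all genes, and 0 members had a fitted fold of at least 2, against 1.53%. Leaving out WT replicate 2, the WT library with the highest levels of most members, gave 6 members with an unadjusted p under 0.05 (0.871% of all genes), 7 with a fitted fold of at least 2 (1.74%) and 8 whose groups did not overlap (7.19%). Without Sgo1-/+ replicate 3, 5 members had groups that did not overlap, against 7.55% of all genes.

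**Figure D2:**
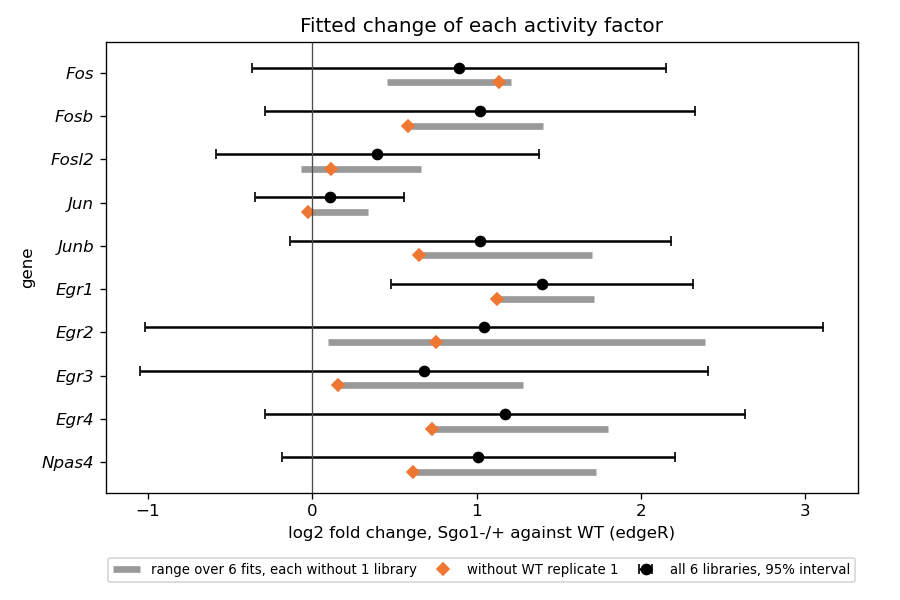
Fitted log2 fold change of each activity factor, Sgo1-/+ against WT: points are the fit to all 6 libraries with its 95% interval, grey bars the range over the 6 fits that each leave out 1 library, and diamonds the fit without WT replicate 1. All points lie above 0 and the interval of Egr1 alone does not reach 0, while the bars of Fosl2 and Jun cross it.

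Fos, the founding member of its family and the usual marker of recently active neurons, had 294, 311 and 64.9 normalized counts (estimated counts scaled for library size and composition) in WT and 367, 546 and 331 in Sgo1-/+ libraries (chr12:85473890-85477273, mm10, + strand). Its groups did not overlap, and WT replicate 3 was far below the other libraries, while WT replicate 1 was near WT replicate 2. The log2 fold change was 0.89 ± 0.531 (SE, 95% interval -0.37 to 2.15, n = 3 per group), with an unadjusted edgeR p of 0.138, an exact permutation p of 0.1 and an adjusted edgeR p of 0.9999, which was the same for every member. The gap between the highest WT and the lowest Sgo1-/+ library was 6.46%. Exact Poisson 95% intervals for counting error, 279 to 347 and 296 to 370 normalized counts, overlapped across it. Leaving out WT replicate 1 gave a log2 fold change of 1.13, and without WT replicate 3 it was 0.46, the lowest of the 6 fits that each leave out 1 library.

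Fosb, which encodes a Fos relative and its stable splice form deltaFosB, had 28.2, 145 and 124 normalized counts in WT and 180, 277 and 146 in Sgo1-/+ brains (chr7:19302721-19310045, mm10, - strand). Its groups did not overlap, but by a gap of 1.09%. Before normalization the facing libraries stood the other way round, with 152 estimated counts in WT replicate 2 and 143 in Sgo1-/+ replicate 3, and with scaling by library size alone the groups of Fosb overlapped. The means were 98.9 ± 62.1 and 201 ± 67.7 (SD, n = 3), and the log2 fold change of 1.02 ± 0.552 (SE, unadjusted edgeR p = 0.108, exact permutation p = 0.1) was 0.58 without WT replicate 1.

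Fosl2 encodes Fra-2, a Fos relative that rises later and is also expressed in resting tissue. Its normalized counts were 155, 367 and 302 in WT and 237, 560 and 286 in Sgo1-/+ libraries (chr5:32136472-32157831, mm10, + strand). The groups overlapped, and the 2 male libraries were the lowest and the highest. Its log2 fold change of 0.40 ± 0.414 (SE, 95% interval -0.59 to 1.38, unadjusted edgeR p = 0.372, exact permutation p = 0.6) was 0.11 with WT replicate 1 left out and -0.07 with Sgo1-/+ replicate 2 left out. In the 4 female libraries it was -0.35, with both Sgo1-/+ values below both WT values.

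Jun, the partner of the Fos proteins in AP-1, was the steadiest of the 10 with 397, 637 and 437 normalized counts in WT and 517, 501 and 566 in Sgo1-/+ brains (chr4:95049034-95052222, mm10, - strand). WT replicate 2 was the highest library, and all 3 Sgo1-/+ values lay between the WT values. The log2 fold change was 0.11 ± 0.191 (SE, unadjusted edgeR p = 0.598, exact permutation p = 0.7), its 95% interval of -0.35 to 0.56 leaves out a change of 2-fold in either direction, and without WT replicate 1 it was -0.03. Without WT replicate 2 it was 0.34, with an unadjusted edgeR p of 0.0392 and groups that did not overlap, higher in Sgo1-/+. Jun shares 232 exonic bases with the antisense gene Junos, and whether counting used the strand is not given in the sources used here. Junos had at most 18.3 normalized counts in any library.

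Junb encodes a Jun relative that is induced with Fos. It had 145, 617 and 297 normalized counts in WT and 629, 946 and 579 in Sgo1-/+ brains (chr8:84976909-84978748, mm10, - strand). WT replicate 2 lay between Sgo1-/+ replicates 3 and 1, so the groups overlapped, and the other WT libraries lay well below. Its fitted change on the log2 scale of 1.02 ± 0.490 (SE, unadjusted edgeR p = 0.0758, exact permutation p = 0.2) was 0.65 without WT replicate 1. Junb shares 173 exonic bases on the opposite strand with Prdx2, a peroxiredoxin gene with 2324 to 2392 normalized counts over the 6 libraries, a spread much smaller than that of Junb.

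**Figure D3:**
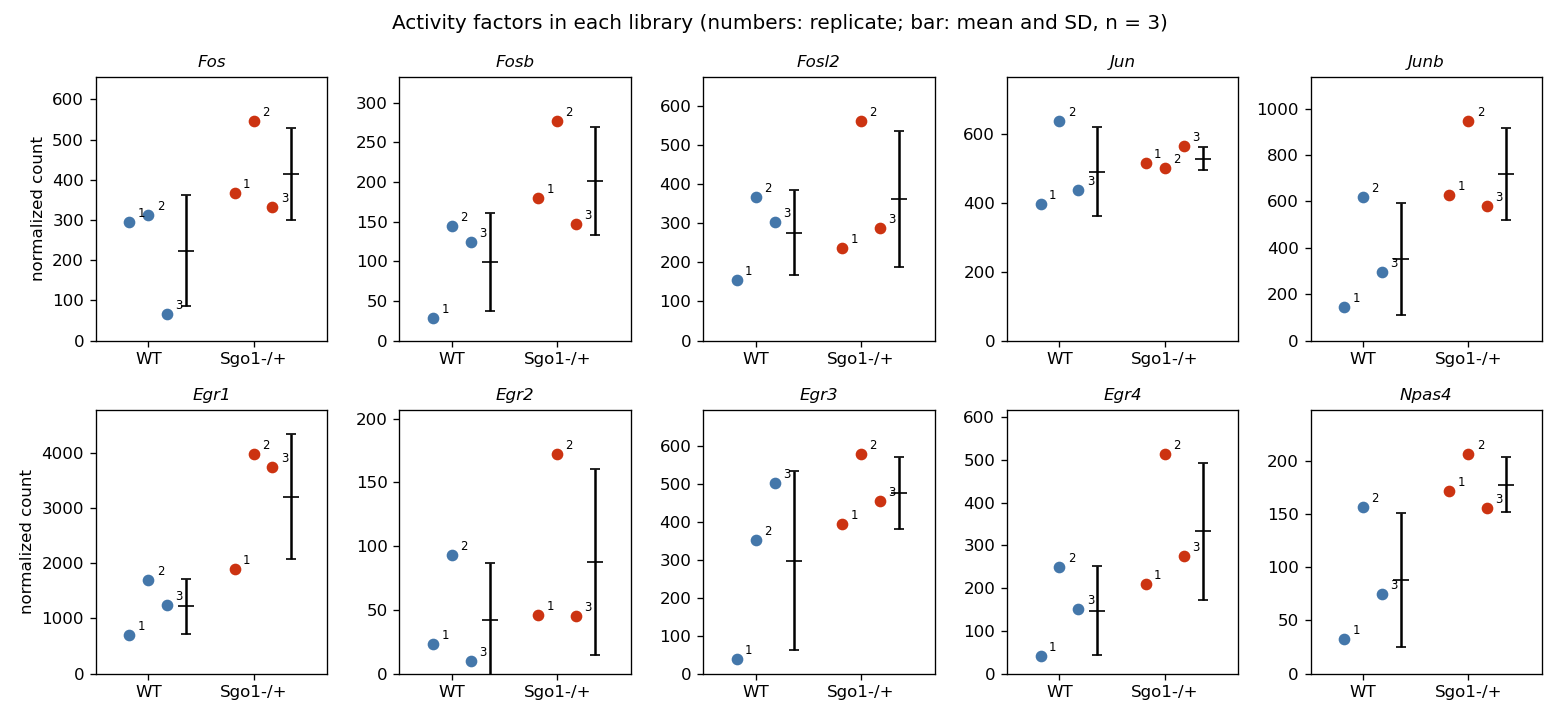
Normalized counts of the 10 activity factors in each library, on a linear axis from 0, with WT in blue, Sgo1-/+ in red, the replicate number beside each point, and the group mean and SD (n = 3) as a bar. Groups of Fos, Fosb and Egr1 do not overlap, and replicate 2 is the highest Sgo1-/+ library in 9 of the 10 panels.

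Egr1 encodes a zinc finger factor with a high basal level in the forebrain that is tied to synaptic plasticity. On chromosome 18, it had 707, 1697 and 1248 normalized counts in WT and 1904, 3983 and 3745 in Sgo1-/+ libraries. All Sgo1-/+ values lay above all WT values, and Sgo1-/+ replicate 1 was closer to WT replicate 2 than to the other Sgo1-/+ libraries. The gap between those facing libraries was 12.2%, and their Poisson 95% intervals, 1619 to 1777 and 1820 to 1992 normalized counts, did not overlap. The means were 1217 ± 496 and 3211 ± 1137 (SD, n = 3), a log2 fold change of 1.40 ± 0.387 (SE, 95% interval 0.48 to 2.32). Its unadjusted edgeR p was 0.00883, its exact permutation p 0.1, and its adjusted p, 0.9999 in edgeR's quasi-likelihood test, was 0.512 at the lowest over the alternatives, in DESeq2's Wald test. Leaving out WT replicate 1 gave 1.12 with an unadjusted edgeR p of 0.00811, and over the 6 fits that each leave out 1 library it ran from 1.12 to 1.72.

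Egr2, known also as Krox20 and needed for hindbrain patterning and myelination of nerves, was the lowest of the 10 per length. It had 23.2, 93.3 and 10.1 normalized counts in WT and 45.7, 172 and 45.0 in Sgo1-/+ libraries (chr10:67535475-67542188, mm10, + strand). Replicate 2 was the highest library of each group and the groups overlapped, with WT replicate 2 above 2 of the Sgo1-/+ libraries. The log2 fold change of 1.05 ± 0.870 (SE, 95% interval -1.02 to 3.11, unadjusted edgeR p = 0.269, exact permutation p = 0.5) was 0.09 without Sgo1-/+ replicate 2 and 2.39 without WT replicate 2. It was -0.20 in the 4 female libraries.

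Egr3, an activity-induced factor that is also needed for muscle spindles, had the largest spread among WT libraries on the log2 scale. It had 38.3, 351 and 501 normalized counts in WT and 393, 578 and 454 in Sgo1-/+ brains (chr14:70077445-70080157, mm10, + strand). WT replicate 1 was far below all others, and WT replicate 3 was the second highest library. Its log2 fold change of 0.68 ± 0.728 (SE, 95% interval -1.05 to 2.40, unadjusted edgeR p = 0.383, exact permutation p = 0.4) was 0.16 without WT replicate 1.

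Egr4, the most distant of the Egr factors and expressed mainly in the nervous system, had 41.3, 250 and 150 normalized counts in WT and 211, 514 and 274 in Sgo1-/+ brains (chr6:85511131-85513589, mm10, - strand). WT replicate 2 lay between Sgo1-/+ replicates 1 and 3, so the groups overlapped. The log2 fold change of 1.17 ± 0.616 (SE, unadjusted edgeR p = 0.0991, exact permutation p = 0.2) was 0.73 with WT replicate 1 left out and 0.72 with Sgo1-/+ replicate 2 left out.

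Npas4, which is induced by calcium entry and regulates inhibitory synapses, had 32.2, 157 and 75.1 normalized counts in WT and 172, 207 and 156 in Sgo1-/+ brains (chr19:4984355-4989971, mm10, - strand). WT replicate 2 was just above Sgo1-/+ replicate 3, and the Sgo1-/+ libraries lay close together. Its log2 fold change of 1.01 ± 0.504 (SE, unadjusted edgeR p = 0.0857, exact permutation p = 0.2) was 0.61 without WT replicate 1.

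Set beside the promoters above, the 6 members with a CRE core had log2 fold changes between 0.89 and 1.17. Those of Jun and Fosl2, whose windows held none of the patterns, were 0.11 and 0.40. Without WT replicate 1, the members with a CRE core ran from 0.58 to 1.13, against -0.03 for Jun and 0.11 for Fosl2. The split did not hold in every fit. Egr2 was below Jun without Sgo1-/+ replicate 2 (0.09 against 0.14) and with females only (-0.20 against 0.01). The other members with a CRE core stayed above Jun and Fosl2 in both of those fits. Without WT replicate 3, Fos was below Fosl2 (0.46 against 0.47). With so few members this is a description only, and no relation was tested.

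The libraries differed in these genes within each group as well as between the groups. The median within-group SD of the members was 0.865 on the log2 CPM scale, against 0.253 over all genes tested. It was 1.18 in WT against 0.269 for all genes, and 0.422 in Sgo1-/+ against 0.168. Jun stood at the 51.8th percentile of all genes by this SD and the other 9 members between the 87.0th and the 98.7th. Without WT replicate 1 the median within-group SD of the members was 0.511 against 0.192 over all genes, and in WT it was 0.450 against 0.157. WT replicate 1 was the lowest library for 8 of the 10 members, against 30.4% of all genes, and WT replicate 3 was the lowest for the other 2, Fos and Egr2. Sgo1-/+ replicate 2 was the highest for 9 members, against 13.5% of all genes, and WT replicate 2 was the highest for Jun. The median log2 ratio of the members to their 6-library median was -1.69, 0.03 and -0.57 in the WT libraries and 0.05, 0.84 and 0.03 in the Sgo1-/+ libraries. WT replicate 2 was thus level with Sgo1-/+ replicates 1 and 3.

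**Figure D4:**
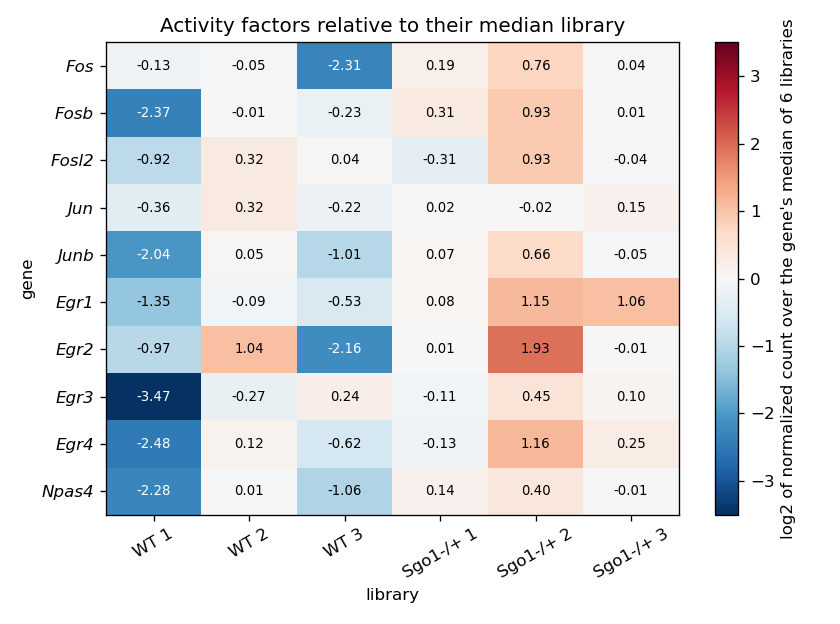
Log2 ratio of each activity factor's normalized count to its own median over the 6 libraries, with genes in rows and libraries in columns (blue below, red above the median). WT replicate 1 is below the median in all rows, from -0.13 for Fos to -3.47 for Egr3, while WT replicate 3 is low for Fos (-2.31) and Egr2 (-2.16) but not for Egr3 (0.24).

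The members did not fall in parallel in the low libraries. In WT replicate 1, Egr3, Egr4, Fosb, Npas4 and Junb had log2 ratios to their median between -3.47 and -2.04, and Fos had one of -0.13. In WT replicate 3 these ratios were -2.31 for Fos and -2.16 for Egr2, and 0.24 for Egr3. Egr1 was the one member high in Sgo1-/+ replicate 3, with a log2 ratio of 1.06, close to its 1.15 in Sgo1-/+ replicate 2.

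Region markers followed these levels in some libraries and not in others. All 8 striatum markers, such as the dopamine receptor genes Drd1 and Drd2, were highest in Sgo1-/+ replicate 2 and lowest in WT replicate 1, and their sums were 308, 1255 and 1512 CPM in WT and 1935, 2304 and 955 CPM in Sgo1-/+ brains. The 8 cortex markers, such as the glutamate transporter gene Slc17a7, summed to 398, 1191 and 1475 CPM in WT and 1195, 1210 and 1496 CPM in Sgo1-/+ brains, and 7 of them were lowest in WT replicate 1. The 10 activity factors summed to 1861, 4626 and 3210 normalized counts in WT and 4655, 8283 and 6583 in Sgo1-/+ libraries. WT replicate 2 and Sgo1-/+ replicate 1 thus had near-equal sums of both cortex markers and activity factors, whereas Sgo1-/+ replicate 2 had a like cortex sum and a much higher sum of activity factors. Sgo1-/+ replicate 3 had the highest sum of the 8 hippocampus markers, 779 CPM against 552 to 685 CPM in the others, and the 6 blood markers were highest in Sgo1-/+ replicate 1, at 1413 CPM against 115 to 527 CPM. Neuron markers summed to 5842 CPM in WT replicate 1 and 7313 to 8976 CPM in the others. In Sgo1-/+ replicate 3 the sum of activity factors was the second highest and that of striatum markers the second lowest. Egr1 alone made up 3745 of the 6583 normalized counts of that sum. By the members' median log2 ratio, Sgo1-/+ replicate 3 (0.03) was level with WT replicate 2 (0.03) and Sgo1-/+ replicate 1 (0.05). In WT replicate 3 the sum of activity factors was the second lowest and that of cortex markers the second highest. The part of tissue makeup in the levels of the activity factors was not tested.

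**Figure D5:**
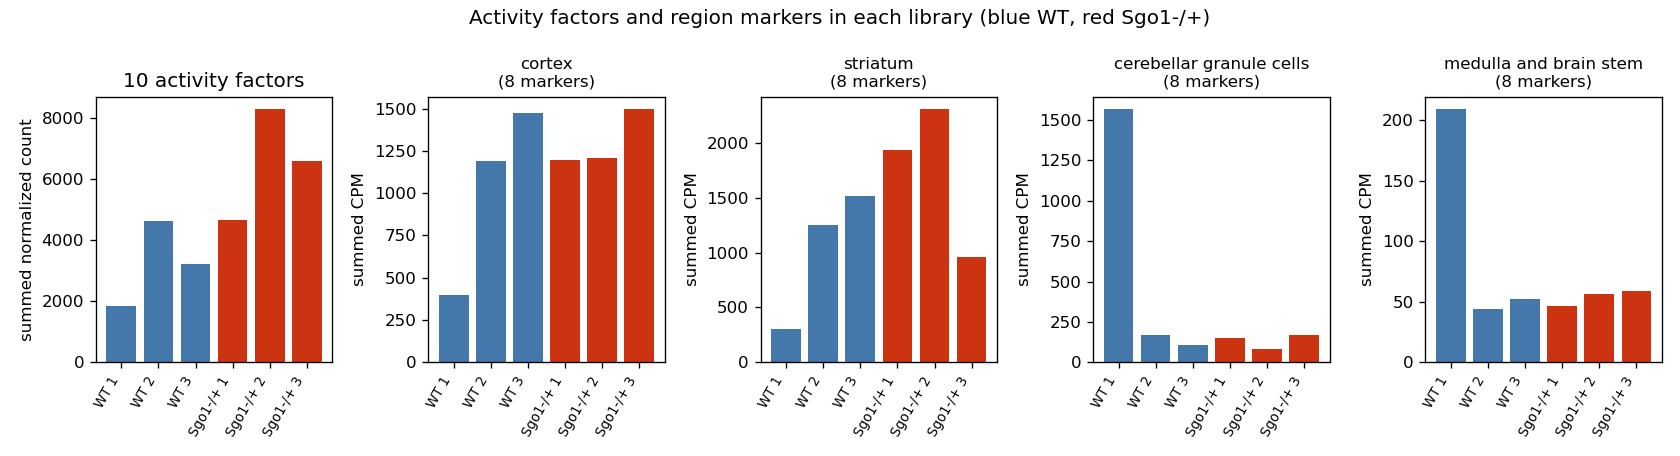
Summed normalized count of the 10 activity factors and summed CPM of marker lists for cortex, striatum, cerebellar granule cells, and medulla and brain stem (8 genes each) in each library, as bars from 0 with WT in blue and Sgo1-/+ in red. WT replicate 1 has the lowest bars for the activity factors, cortex and striatum and the highest for granule cells (1567 CPM) and brain stem (209 CPM), and Sgo1-/+ replicate 2 has the highest for the activity factors and striatum.

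Other genes of the activity response were also mostly higher in Sgo1-/+ brains. Of 24 such genes, 21 were above 0, against 49.8% of all genes tested, and 3 below. Their median log2 fold change was 0.45 (0.32 without WT replicate 1). An unadjusted edgeR p under 0.05 was reached by 5 of them, all higher, against 0.808% of all genes, and by none lower. Groups did not overlap for 6, all higher, against 3.24% of all genes. Without WT replicate 1, an unadjusted edgeR p under 0.05 was again reached by 5, all higher, against 1.86% of all genes. The list was drawn up with earlier results of these data known, so these counts are a description and no separate support. The 4 with the smallest p were Dusp6, a phosphatase of the MAP kinase ERK, Trib1, a pseudokinase, Arc, a dendritic protein of synaptic plasticity, and Vgf, a secreted neuropeptide precursor. The fifth was Nr4a1, an orphan nuclear receptor, named here after its values were seen. Dusp6 had 311, 449 and 446 normalized counts in WT and 607, 796 and 757 in Sgo1-/+ libraries, a log2 fold change of 0.84 ± 0.184 (SE, unadjusted edgeR p = 0.0027, exact permutation p = 0.1). Arc had 464, 1213 and 503 normalized counts in WT and 1286, 3014 and 2113 in Sgo1-/+ libraries, a log2 fold change of 1.56 ± 0.458 (SE, unadjusted edgeR p = 0.0117, exact permutation p = 0.1). Both had groups that did not overlap, and both were highest in Sgo1-/+ replicate 2 and lowest in WT replicate 1, as most members were. The log2 fold changes of Trib1 and Vgf were 0.59 each, and that of Nr4a1 was 1.25. With WT replicate 1 left out, they were 0.69 for Dusp6, 1.32 for Arc, 0.61 for Trib1, 0.48 for Vgf and 1.02 for Nr4a1.

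The relatives, partners and upstream regulators had smaller median log2 fold changes than the members, though single genes among them did not. Of 8 further AP-1 relatives, 6 were tested (Batf and Batf3 were too low). Of these, 5 were above 0, against 49.8% of all genes, and 1 below. Their median log2 fold change was 0.12, and 0 had an unadjusted edgeR p under 0.05. Groups did not overlap for 1, Atf3, which was higher in Sgo1-/+, against 3.24% of all genes. Without WT replicate 1 the median was 0.067, and 1 gene, Atf3, was higher at an unadjusted edgeR p under 0.05, against 1.86% of all genes. Atf3, a stress-induced factor, had a log2 fold change of 0.74 (0.96 without WT replicate 1) at 15.2 to 41.7 normalized counts, and Maff, a small Maf factor, one of -0.83 (-0.85). Jund, the Jun relative that is expressed without stimulation, had a log2 fold change of 0.16 (0.069 without WT replicate 1) and Jdp2, a repressor of AP-1, one of 0.28 (0.065). Of the 4 partners, the Egr co-repressors Nab1 and Nab2 stood at -0.32 and 0.32 and the Npas4 partners Arnt and Arnt2 at -0.15 and 0.25. Without WT replicate 1 these 4 values were -0.15, 0.16, -0.09 and 0.061. With all 6 libraries, groups did not overlap for 1 of the 4, Arnt2, which was higher in Sgo1-/+, against 3.24% of all genes. The 17 upstream regulators, among them serum response factor (Srf) and the kinase Camk4, had a median log2 fold change of 0.09. Of them, 15 were above 0, against 49.8% of all genes. WT replicate 1 was the lowest library for 12 of them, against 30.4% of all genes, and without it the median was -0.07. Srf, Camk4, Crem and the coactivator Crebbp, the 4 with the smallest p, had log2 fold changes of 0.32, 0.27, 0.25 and -0.16, and of 0.098, 0.11, 0.17 and -0.27 without WT replicate 1. None of the 17 reached an unadjusted edgeR p under 0.05 with or without that library.

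The genes whose pattern over the 6 libraries was most like the mean log2 CPM of the members were 9430021M05Rik, Gli3, Vill, Ier5l, Mypn, 2010110P09Rik, Gldn, Gm20691, Gm7206 and Stk33, with Pearson's r from 0.960 to 0.995. These 10 were the highest of 5022 genes that varied by at least 1 on the log2 CPM scale, over 6 libraries that share each mouse's dissection and depth. All 10 were lowest in WT replicate 1 and highest in Sgo1-/+ replicate 2, and without WT replicate 1 their r ran from 0.883 to 0.986. All but Gli3 and Ier5l, 8 of the 10, stayed under 100 normalized counts in every library.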

How the data were processed

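RNA of 6 brains, 3 WT and 3 Sgo1-/+, was sequenced with 1 library per mouse. The authors aligned the reads to mm10 and deposited, for each library, an estimated count per Ensembl gene without normalization, and the submitters' processing notes name BWA and edgeR without versions. The deposited table also holds the authors' normalized values and fold changes (log2, signed and absolute), which were not used. The Ensembl release and the strand setting of the counting are not given in the sources used here. Groups, sexes and runs came from the labels.

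Estimated counts were rounded and fitted with edgeR 4.0.16 in R 4.3.3 by its quasi-likelihood test with TMM scaling and without covariates, on the 16337 genes that passed its default filter, and p-values were adjusted by Benjamini-Hochberg over those genes. The SE of a log2 fold change is its size over the square root of F. Normalized counts are counts over the TMM-scaled library size, times its mean, and CPM per kb uses the union of exons of the GENCODE annotation of GRCm38. Single genes were also compared by exact two-sided permutation tests, of which the smallest p is 0.1. The code was tested on simulated data.

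Totals were 11123917 to 12505561 estimated counts. Intervals and the limit of 3 counts for a 0 cover counting error only, since the reads carry no molecular identifiers and can be copies of 1 molecule. The edgeR p-values weigh the difference between the groups against the spread between mice within a group. The permutation p-values rank the observed grouping among the 20. Neither separates genotype from run.

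Named were all 10 members, for each further list the 4 genes with the smallest unadjusted p, and the 10 genes of highest Pearson's r with the members' mean. Members, lists and markers were chosen with earlier results of these data known. Alternatives were DESeq2 1.42.0, edgeR's likelihood ratio test, limma 3.58.1 on log2 of normalized counts plus 1, DESeq2's size factors, library size alone, no filter, a filter of 10 counts per library, a term for sex, females only, the replicate number as a block, and each library left out. Promoters came from RefSeq (GRCm38.p6).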

Additional observations from a re-analysis of the deposited data

How the results depend on the processing

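No member had an adjusted p under 0.05 under any of the 16 alternatives, and 155 of the members' 160 alternative log2 fold changes kept their direction. The others were Fosl2 (-0.35), Egr2 (-0.20) and Egr3 (-0.0039) with females only, Jun without WT replicate 1 and Fosl2 without Sgo1-/+ replicate 2. All of these reversals came from fits that left out libraries. The alternatives refit the same 6 libraries or a part of them, so the shared direction is no independent support. Leaving out 1 library at a time, the log2 fold change of Jun ran from -0.026 to 0.34 and that of Fosl2 from -0.071 to 0.66. Over the table, 0 genes had an adjusted p under 0.05 in edgeR's quasi-likelihood test, where 333 had an unadjusted p under 0.05. DESeq2's Wald test gave 3 genes at an adjusted p under 0.05, edgeR's likelihood ratio test 2 and females only 1, and leaving out 1 library gave 0 to 1. The members with an unadjusted p under 0.05 were 1 in the main test, 4 with DESeq2, 2 with the likelihood ratio test, 2 without the filter and 1 to 6 leaving out 1 library, with 6 without WT replicate 2, all higher in Sgo1-/+. The shares of all genes that were higher at this limit were 0.808%, 0.809%, 0.783% and 0.752% in the first 4 of these, 0.486% to 3.15% leaving out 1 library, and 0.871% without WT replicate 2. The members whose groups did not overlap were 3, all higher, against 3.24% of all genes. Leaving out 1 library they were 3 to 8, all higher, against 6.18% to 12.6% of all genes. With females only, 3 were higher, against 15% of all genes, and 1, Fosl2, was lower, against 15.7%. With the replicate number as a replicate block, 6 members had an unadjusted edgeR p under 0.05, all higher, against 0.765% of all genes. The labels used here name no pairing of mice by number. Deviations of same-numbered libraries correlated at -0.207 to 0.0140, and 0 of 6 libraries correlated best with their own number. With 3 libraries per group, these correlations cannot decide whether the numbers pair mice. The cause of the shifts between settings was not tested. With 3 mice per group, the lowest counts (Egr2, Npas4 and Fosb in WT, down to 10.1 normalized counts) have the largest counting error.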
